A study of Mus musculus with 2 samples.

Results

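Interferon-signature macrophages are described here as 427 cells, out of 8544 myeloid cells and 15373 cell barcodes in all, with the highest combined level of the interferon-stimulated genes Rsad2, Ifit1, Ifit2 and Ifit3. A myeloid cell was a barcode with at least 1000 UMIs (unique molecular identifiers, each the count of 1 captured RNA molecule), at least 15 counts per 10000 UMIs (CP10K) of the macrophage genes Csf1r, C1qa, C1qb, C1qc and Cd68 together, and at most 1 UMI of Cd3d, Cd3e and Cd3g together. The members are the top 5% of these cells by the summed CP10K of the 4 genes, ranked over both libraries, 148 of them in the library labelled KO and 279 in WT. Because these values chose the cells, the levels of the 4 genes are a description and support nothing. A set cut from a score is a range of cells and not a type. The last member stood at 4.79 CP10K, 59 members lay under 6 CP10K and 51 other myeloid cells lay over 4 CP10K. At the cut itself 2 cells had the same score, and 1 of them was kept by file order.

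The study made RUNX3-/- mice and tumour models to follow the transcription factor RUNX3 and the entry of natural killer (NK) cells in colorectal cancer. Single-cell RNA sequencing was done on 2 mouse libraries with the tissue label Colon, 1 labelled KO (RUNX3 ko) and 1 labelled WT (RUNX3 wt). No label gives the strain, the age or the number of animals behind a library, the tumour model, the deleted part of Runx3 or the cells that lack it. With 1 library per group no difference between KO and WT has a replicate check, so no test was made, and every interval below is a 95% interval for counting error only.

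Runx3 transcripts were counted in both libraries. Among the members Runx3 had 156 UMIs per 1000000 UMIs summed over the cells (CPM) in the library labelled KO (137 to 177 CPM, in 83 of 148 cells) and 197 CPM in WT (180 to 214 CPM, in 171 of 279 cells). Counts per gene can hold RNA from outside a deleted part, so they do not check the label, and each direction given for the library labelled KO is that of its label. That library held 6573 barcodes and 62465176 UMIs, and WT held 8800 barcodes and 85367638 UMIs. Members had a median of 9295 UMIs in KO and 7999 UMIs in WT, against 10869 UMIs in the other myeloid cells of KO and 9449 UMIs in those of WT. The libraries also differ in the sex of their cells. By the transcripts of Xist and of 4 Y-linked genes, 1877 myeloid cells of KO were female-type and 841 male-type, whereas 4370 myeloid cells of WT were male-type. Doublets were not removed, and barcodes with both Xist and Y-linked UMIs numbered 284 among myeloid cells of KO (14 of them members, median 18169.5 UMIs) and 1 in WT. Without them 134 members remained in KO and 279 in WT, and the share of members was 4.46% in KO and 5.31% in WT. The libraries share 17 barcode sequences, 4 of them among myeloid cells and 1 on a member.

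Type I interferons bind a receptor made of IFNAR1 and IFNAR2, whose kinases JAK1 and TYK2 activate STAT proteins. With IRF9 these form a complex that binds interferon-stimulated response elements and switches on genes that interfere with viral entry, translation and replication. Interferon gamma acts through its own receptor, with a partly overlapping set of targets, and macrophages that carry an interferon programme have been described in many tumours. Of the 4 genes that define the members, Rsad2 encodes viperin, which converts CTP into a chain-terminating nucleotide, and the Ifit genes encode tetratricopeptide proteins that bind foreign RNA or restrain translation.

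Promoters of 3 of these genes and of 2 genes outside the rule that were higher in the members are shown, because repeats of the kind found in interferon-stimulated response elements lie in them. Each line gives the 200 bases before the RefSeq gene start (GRCm38.p6), 5′ to 3′ on the strand of the gene, and capitals mark each match to the spaced repeat of GAAA, any 2 bases and GAAA, or of TTTC, any 2 bases and TTTC where it lies on the other strand; matches may overlap. Rsad2 was read on the minus strand at chr12:26456453-26456652, Ifit1 on the plus strand at chr19:34640689-34640888, Ifit3 on the plus strand at chr19:34583329-34583528, Ifit3b on the plus strand at chr19:34607757-34607956 and Isg15 on the minus strand at chr4:156200819-156201018.
Rsad2: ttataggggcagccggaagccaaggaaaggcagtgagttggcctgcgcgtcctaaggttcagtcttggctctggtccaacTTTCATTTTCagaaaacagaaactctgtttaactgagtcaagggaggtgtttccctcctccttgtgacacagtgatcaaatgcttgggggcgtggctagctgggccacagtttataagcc
Ifit1: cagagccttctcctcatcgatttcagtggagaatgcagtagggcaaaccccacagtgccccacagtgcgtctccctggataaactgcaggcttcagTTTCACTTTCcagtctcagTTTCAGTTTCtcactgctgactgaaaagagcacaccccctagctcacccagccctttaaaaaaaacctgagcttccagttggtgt
Ifit3: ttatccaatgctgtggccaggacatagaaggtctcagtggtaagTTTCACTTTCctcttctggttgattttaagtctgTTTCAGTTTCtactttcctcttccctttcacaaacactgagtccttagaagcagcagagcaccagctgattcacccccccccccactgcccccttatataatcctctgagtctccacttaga
Ifit3b: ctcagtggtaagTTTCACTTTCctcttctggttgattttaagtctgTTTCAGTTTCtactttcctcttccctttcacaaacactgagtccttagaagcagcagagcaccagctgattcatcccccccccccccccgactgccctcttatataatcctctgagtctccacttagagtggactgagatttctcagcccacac
Isg15: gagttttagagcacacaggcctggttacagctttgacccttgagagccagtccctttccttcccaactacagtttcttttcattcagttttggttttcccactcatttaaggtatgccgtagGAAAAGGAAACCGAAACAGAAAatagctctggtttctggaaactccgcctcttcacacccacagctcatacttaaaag

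Rsad2 held 1 match that starts 120 bases before the gene start, Ifit1 held 2 matches at 104 and 85 bases, and Ifit3 held 2 at 156 and 122 bases. Ifit1, Ifit3 and Ifit3b carry the same pair of words, TTTCACTTTC and TTTCAGTTTC, spaced 19 bases apart in Ifit1 and 34 bases apart in Ifit3 and in its near-identical neighbour Ifit3b. In Isg15, 3 overlapping matches at 78, 72 and 66 bases form 1 run. No match stood in either window of Ifit2 or in that of Cmpk2. Of 27025 genes with RefSeq windows of 300 bases (250 before to 50 after a gene start), 3.99% held the motif, whereas 3 of the 4 genes of the rule, 13 of 26 antiviral effector genes with a window and 0 of 15 cell cycle genes with a window did. Among listed genes that lean towards interferon gamma, 10 of 13 with a window held it, and among PYHIN and Schlafen genes 11 of 16 did. The share was thus not highest in the antiviral effectors. Of the 20 genes named below as highest in the members, 16 had a window and 8 of those held the motif. A match describes these letters only, and its absence says nothing about a factor.

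Rsad2 supplied more than any other gene of the rule to the score. It lies on chromosome 12 (26442746 to 26456452, minus strand, mm10), with Cmpk2 next to it on the plus strand (26469204 to 26479837). Rsad2 had 1008 CPM in the members of KO and 1269 CPM in those of WT, against 12.1 and 9.06 CPM in the other myeloid cells, and it made up 55.2% of the rule's UMIs in KO members and 52.9% in WT members. A UMI of Rsad2 was found in 135 of 148 members in KO and in 255 of 279 members in WT. Ifit1, Ifit2 and Ifit3 lie together on chromosome 19 between 34550694 and 34650009. Their UMIs were found in 93, 81 and 69 members of KO and in 202, 193 and 186 members of WT. Reads that fit both Ifit3 and Ifit3b, or Ifit1 and its relatives, may have been split or dropped in counting, so the levels of these paralogs are uncertain.

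The members differed widely among themselves. In KO, 47 of 148 members had UMIs of all 4 genes, 29 had 3, 31 had 2 and 41 had only 1. In WT, 126 of 279 members had all 4 genes, 69 had 3, 41 had 2 and 43 had only 1. The score had a median of 9.91 CP10K in KO members and 13.9 CP10K in WT members and reached 207 CP10K in KO and 255 CP10K in WT. Most members did not rest on a single molecule. Over both libraries, 17 members were chosen on 1 UMI of the 4 genes, 17 on 2, 23 on 3 and 370 on 4 or more.

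The score was not restricted to the myeloid gate. Among barcodes with at least 1000 UMIs outside it, 94 of 2070 in KO (4.54%, 3.68 to 5.53%) and 181 of 3359 in WT (5.39%, 4.65 to 6.21%) reached the members' cut, at median depths of 8182.5 and 6745 UMIs. In barcodes with at least 2 Cd3 UMIs the shares were 3.02% in KO and 3.43% in WT, at median depths of 5327.5 and 4330 UMIs. A UMI of Rsad2 was found in 6.69% of the other myeloid cells of KO and in 6.73% of those of WT. Those sets exclude the members, whereas no high scorers were taken out of the barcodes outside the gate. Among all barcodes outside it with at least 1000 UMIs, 9.42% in KO and 9.26% in WT had a UMI of Rsad2. Among the Cd3 barcodes, 4.44% in KO and 2.74% in WT had one. T cells can respond to interferon themselves, and the part of free RNA in these shares was not tested.

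Outside the rule, the members differed from the other myeloid cells first of all in antiviral genes. A gene was counted as higher where its CPM in members exceeded that in other myeloid cells by at least 1 on the log2 scale in each library, after adding 5 CPM to both values. Of 9353 genes outside the rule with at least 20 UMIs in the members of both libraries together, 143 (1.53%) were higher and 11 (0.118%) were lower by that size. Genes scarce in members fail that minimum, as did the collagen-binding gene Dcn (-1.49 in KO, -1.83 in WT). The counts of higher and lower genes therefore cannot be set against each other. In KO taken alone, 174 genes (1.86%) were higher and 37 (0.396%) lower, and in WT alone 218 (2.33%) were higher and 50 (0.535%) lower. Among the antiviral effectors, 24 of 29 were higher and none was lower, with a median log2 ratio of 1.87 in KO and 1.81 in WT, beside medians over all genes of -0.09 in KO and -0.11 in WT. The 29 genes together had 6833 CPM in KO members and 1930 CPM in other KO myeloid cells, and 8786 CPM in WT members and 2428 CPM in other WT myeloid cells. The genes of the programme move together in one cell, so counts over such a list are not independent of the choice of cells by 4 of its relatives.

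**Figure D1:**
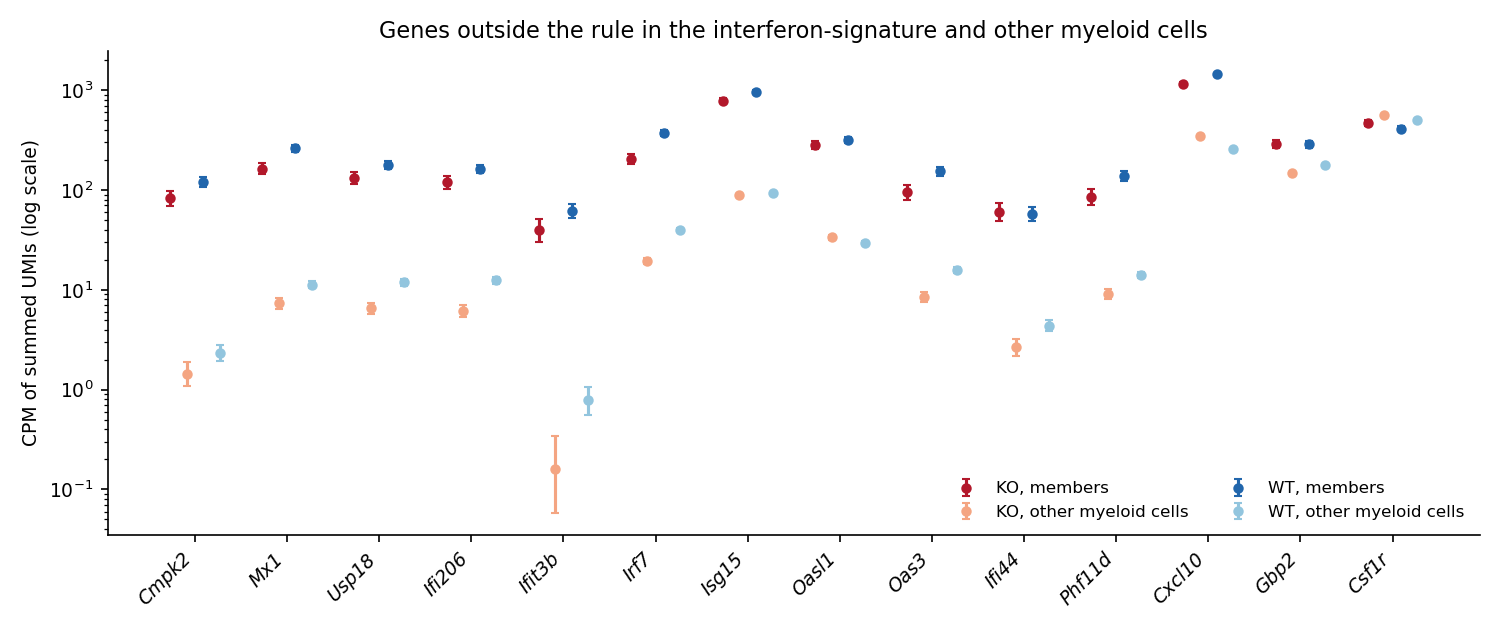
Levels of 14 genes outside the score, on a log axis of CPM, in the members and other myeloid cells of KO (red, left) and WT (blue, right). Points are UMI sums over all cells of a set and bars are 95% Poisson intervals; Cmpk2 stood at 82.7 CPM in KO members and 121 CPM in WT members and under 3 CPM in the other myeloid cells of both, while Csf1r was lower in members of both libraries.

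Mx1, a GTPase that traps viral nucleocapsids, headed the ranking by the smaller of the 2 ratios with 5 CPM added to both values. It had 164 CPM in KO members (144 to 186) and 7.29 CPM in other KO myeloid cells, and 261 CPM in WT members (242 to 282) and 11.2 CPM in other WT myeloid cells. That is a log2 ratio of 3.78 in KO and 4.04 in WT. Cmpk2, a mitochondrial nucleotide kinase and the marker named with the members, followed with 82.7 CPM in KO members and 1.43 CPM in other KO myeloid cells, and with 121 CPM in WT members and 2.34 CPM in other WT myeloid cells. With no CPM added, the ratios of CPM were larger for Cmpk2 (57.7 in KO, 51.6 in WT) and for the low gene Ifit1bl1 (94.8 and 86.2) than for Mx1 (22.5 and 23.3). Cmpk2 was found in 47 of 148 KO members and 122 of 279 WT members. The counting is not stated to use strand, and a read between neighbours on opposite strands could not be assigned to either with certainty.

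Oligoadenylate synthetases sense double-stranded RNA and prime RNase L. Oas3 had 94.6 CPM in KO members and 8.49 CPM in other KO myeloid cells, and 154 CPM in WT members and 15.9 CPM in other WT myeloid cells. Oasl1 had log2 ratios of 2.91 in KO and 3.24 in WT, Oasl2 2.71 and 2.56, Oas2 1.92 and 1.81, and Oas1a 1.87 and 1.61. Among other effectors, the log2 ratios of Isg20, an exonuclease, were 2.73 in KO and 2.68 in WT, those of Ifi44 were 3.11 and 2.75, and those of Mx2 were 2.80 and 2.44. Ifitm3, which blocks fusion of viruses with endosomes, was the most abundant effector, at 1546 CPM in KO members and 469 CPM in other KO myeloid cells, and at 2247 CPM in WT members and 638.7 CPM in other WT myeloid cells. The 5 effectors that missed a log2 ratio of 1 in both libraries were Adar, Apobec3, Samhd1, Shisa5 and Zc3hav1, with ratios between 0.51 and 0.95, and none of the 29 was negative in either library.

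The ISG15 system, which attaches a ubiquitin-like protein to targets, was higher in 4 of its 5 listed genes. Isg15 itself had 784 CPM in KO members and 89.0 CPM in other KO myeloid cells, and 958 CPM in WT members and 93.7 CPM in other WT myeloid cells. The protease Usp18, which removes ISG15 and also restrains the type I receptor, had log2 ratios of 3.57 in KO and 3.42 in WT. The ligase Herc6 had 2.27 and 2.28 and the conjugating enzyme Ube2l6 had 1.55 and 1.76. The activating enzyme Uba7 stayed below the size used, at 0.78 and 0.92.

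In the PYHIN genes, whose products bind DNA, and the Schlafen genes, which act on transfer RNA and cell growth, 14 of 17 were higher, with medians of 2.09 in KO and 2.26 in WT. Ifi206 had log2 ratios of 3.48 in KO and 3.25 in WT, Ifi213 3.28 and 3.12, Ifi209 2.55 and 2.99, and Slfn5 3.02 and 2.70. Aim2, the sensor of the inflammasome, had only 0.52 and 0.60, and Slfn2 had 0.53 and 0.88. These genes sit in clusters of close paralogs, so single values are uncertain. Among the Ifit relatives outside the rule, Ifit3b had 39.7 CPM in KO members and 0.159 CPM in other KO myeloid cells, and 61.9 CPM in WT members and 0.781 CPM in other WT myeloid cells, and Ifit1bl1 had log2 ratios of 2.98 in KO and 3.31 in WT. Phf11d and Phf11b, neighbours on chromosome 14, and Rtp4, a chaperone of G protein-coupled receptors, completed the 20 named genes, with log2 ratios between 2.53 and 3.12.

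The members differed in targets and transcription factors of the pathway but little in its receptors. Irf7, the factor that amplifies interferon production, had 206 CPM in KO members (184 to 231) and 19.5 CPM in other KO myeloid cells, and 374 CPM in WT members (351 to 398) and 40.0 CPM in other WT myeloid cells. It was the only 1 of 9 interferon regulatory factors past the size used, while Irf9 had log2 ratios of 0.66 in KO and 0.58 in WT and Irf1 had 0.25 and 0.14. Among the receptor and signalling genes Stat2, a subunit of the complex with IRF9, was higher, with log2 ratios of 1.64 in KO and 1.96 in WT. Ifnar1 had 125 CPM in KO members and 122 CPM in other KO myeloid cells, and 123 CPM in WT members and 124 CPM in other WT myeloid cells. Ifngr1, the ligand-binding chain of the interferon gamma receptor, was negative in both libraries, at -0.34 in KO and -0.65 in WT. Among negative regulators other than Usp18, Socs1 had 0.75 and 0.41 and Socs3 -0.03 and -0.15.

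Nucleic acid sensors were split. RIG-I (Ddx58), MDA5 (Ifih1) and LGP2 (Dhx58), which detect viral RNA, were higher, as were Zbp1, a sensor of Z-form nucleic acid, and Tlr3, an endosomal receptor for double-stranded RNA. Ddx58 had log2 ratios of 2.03 in KO and 2.40 in WT, Ifih1 2.13 and 1.69, Zbp1 1.80 and 1.72, Dhx58 1.74 and 1.61, and Tlr3 1.24 and 1.12. The adaptors and other sensors stood near the level of the other myeloid cells, with Mavs at 0.00 and 0.03, Tbk1 at -0.12 and 0.15 and Tlr4 at -0.19 and -0.09. In all, 5 of 17 were higher, and the median was 0.28 in KO and 0.34 in WT.

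Genes that lean towards interferon gamma differed less than the antiviral effectors. Of 23 guanylate-binding, immunity-related GTPase and other genes, 8 were higher, and their median was 0.93 in KO and 0.92 in WT. Ifi47 had log2 ratios of 1.72 in KO and 1.71 in WT, Irgm1 1.68 and 1.62, Iigp1 1.66 and 1.48 and Gbp5 1.45 and 1.19. Gbp2 had 288 CPM in KO members and 149 CPM in other KO myeloid cells, and 286 CPM in WT members and 180 CPM in other WT myeloid cells. Cxcl9, the chemokine most tied to interferon gamma, had a log2 ratio of 0.44 in KO and 0.41 in WT, and Ciita, the master regulator of class II genes, had 0.08 and -0.55. Nos2, inducible nitric oxide synthase, had 1.62 in KO and 2.87 in WT, with 32.4% of its UMIs in KO members from 1 cell.

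Of 19 chemokines, 4 were higher. Cxcl10, a ligand of CXCR3 on T and NK cells, had 1159 CPM in KO members and 349.6 CPM in other KO myeloid cells, and 1448 CPM in WT members and 260 CPM in other WT myeloid cells. Its relative Cxcl11 had log2 ratios of 1.56 in KO and 2.55 in WT. The inflammatory chemokines Ccl4 and Ccl5 had 1.12 and 1.62 in KO and 1.49 and 2.05 in WT. The neutrophil attractant Cxcl2, one of the most abundant chemokines, was negative in both libraries, at -0.11 in KO and -0.22 in WT. Among 16 cytokines and death ligands, Il15, which sustains NK cells and memory T cells, had log2 ratios of 1.55 in KO and 1.99 in WT and Tnfsf10, encoding the death ligand TRAIL, 2.12 and 1.91. Il1b was negative in both, at -0.08 in KO and -0.28 in WT.

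Class I presentation stood slightly above the other myeloid cells. All of its 18 listed genes except Calr, Erap1 and Pdia3 had positive ratios in both libraries, with medians of 0.36 in KO and 0.49 in WT. The nonclassical gene H2-T22 (1.44 in KO, 1.42 in WT) was the only 1 past the size used, and its close relatives make that value uncertain. Of 10 checkpoint and costimulatory genes, Lgals9, encoding galectin 9, was higher (1.19 in KO, 1.24 in WT), and Cd274, encoding PD-L1, had 0.58 and 0.71.

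**Figure D2:**
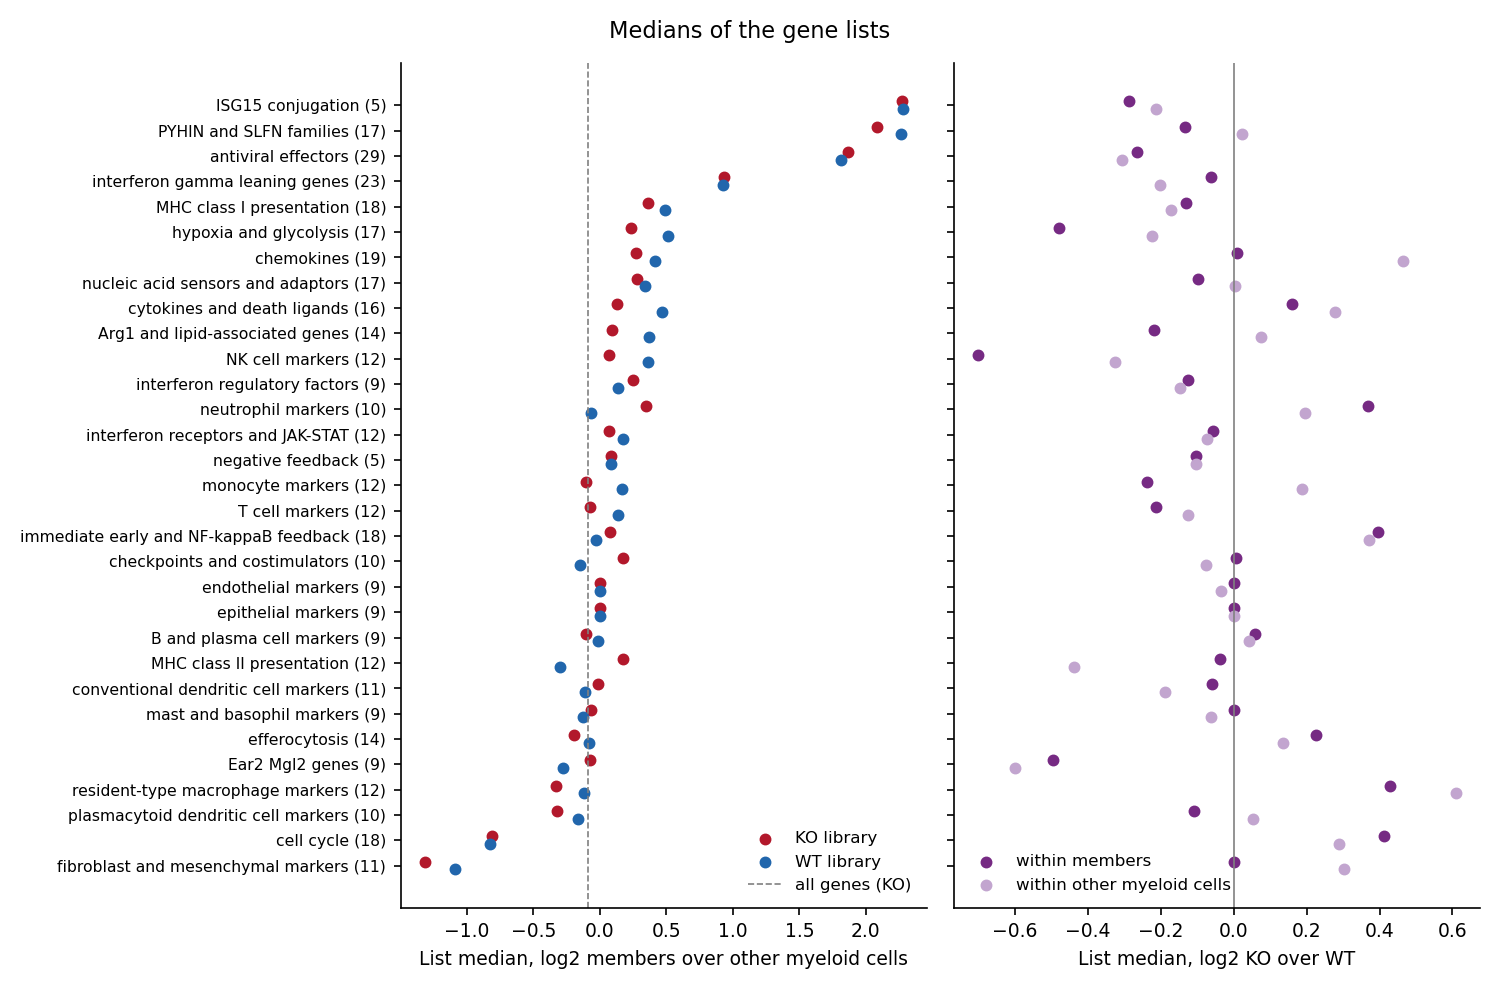
Medians of gene lists with at least 5 genes outside the rule, with the number of genes in parentheses. The left panel gives log2 members over other myeloid cells in KO (red, drawn above) and WT (blue), with a dashed line at the median of all genes in KO (-0.09), and the right panel gives log2 KO over WT within members (dark) and within other myeloid cells (light); ISG15 conjugation, PYHIN and SLFN genes and antiviral effectors stand at 1.81 or more in the left panel.

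Cell cycle genes stood lower in the members. All 18 listed cell cycle genes had negative ratios in both libraries, with medians of -0.81 in KO and -0.82 in WT, and Rrm2 and Tk1, which supply DNA precursors, were past the size used. Rrm2 had 11.2 CPM in KO members and 36.2 CPM in other KO myeloid cells, and 10.6 CPM in WT members and 28.8 CPM in other WT myeloid cells. The cycle genes Cdca8, Pclaf, Cit and H1f5 were also among the 10 lowest genes with enough UMIs in members, as was Rad51b. The remaining 3 were Col3a1, a fibrillar collagen, at 6.61 CPM in KO members and 121 CPM in other KO myeloid cells and at 7.05 CPM in WT members and 104 CPM in other WT myeloid cells, and the osteoclast genes Ctsk and Acp5. Each of these 3 leads a myeloid cluster with few members, described with the clusters below. In a gate that required 30 CP10K of the macrophage genes, Ctsk was no longer lower in KO members, at 0.59.

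Markers of other macrophage states differed in part between the libraries. The monocyte genes Ly6c2 and Plac8 had log2 ratios of 1.09 and 0.91 in KO and of 1.81 and 2.20 in WT, whereas the monocyte receptor Ccr2 had -0.11 in KO and -0.54 in WT. Of 12 resident-type markers 9 had enough UMIs, of which 6 were negative in both libraries and none was higher, with medians of -0.33 in KO and -0.12 in WT. Among them the mannose receptor Mrc1 had -0.32 in KO and -0.98 in WT. Of 17 hypoxia and glycolysis genes, 16 had enough UMIs and 15 of these were positive in both libraries, with medians of 0.24 in KO and 0.51 in WT, and Hilpda, a hypoxia-induced lipid droplet protein, had 0.64 and 1.45. The heat shock genes Hspa1a and Hspa1b, near-identical copies, had 1.26 and 1.48 in KO and 1.82 and 2.14 in WT.

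Markers of other cell types were summed as a check of the gate. Summed over 12 T cell markers, they had 24.5 CPM in KO members and 27.0 CPM in other KO myeloid cells, and 50.5 CPM in WT members and 37.1 CPM in other WT myeloid cells. Over 12 NK cell markers the sums were 106 CPM in KO members and 75.8 CPM in other KO myeloid cells, and 191 CPM in WT members and 131 CPM in other WT myeloid cells. Over 10 plasmacytoid dendritic cell markers the sums were 1257 CPM in KO members and 823 CPM in other KO myeloid cells, and 1459 CPM in WT members and 878 CPM in other WT myeloid cells, and 3 of the 4 with enough UMIs were positive in both libraries. The defining genes Siglech and Klk1 had no UMI in the members of either library, which allows up to 3 UMIs, or 1.98 CPM in KO and 1.17 CPM in WT. Another gene on that list, Bst2, is itself an antiviral effector and had log2 ratios of 1.44 in KO and 1.64 in WT. Over 10 neutrophil markers the sums were 348 CPM in KO members and 192 CPM in other KO myeloid cells, and 42.3 CPM in WT members and 64.2 CPM in other WT myeloid cells. The part of such cells in the results was not tested. The gate genes themselves stayed close to the other myeloid cells, with log2 ratios between -0.29 and 0.38.

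Several genes outside the score rose along its ranges, and Isg15 did so by degrees. In myeloid cells with no UMI of the 4 genes, Isg15 had 66.3 CPM in KO and 66.6 CPM in WT. It had 299 CPM in KO and 361 CPM in WT in the range just under the members (top 5 to 10%), 519 and 574 CPM in the lowest range of the members (top 2.5 to 5%), 911 and 1056 CPM in the next range (top 1 to 2.5%) and 1949 and 1700 CPM in the top 1%. There was no step in Isg15 at the cut. Mx1 and Irf7 climbed across all ranges in both libraries, and so did Cmpk2 in WT, but Mx1 and Cmpk2 rose more steeply than Isg15 at the cut. From the top 5 to 10% to the top 2.5 to 5%, Mx1 went from 28.6 to 109 CPM in KO and from 45.7 to 114 CPM in WT. Cmpk2 went from 5.62 to 34.2 CPM in KO and from 8.92 to 39.0 CPM in WT. In KO, Cmpk2 had 34.2 CPM in the top 2.5 to 5%, 32.5 CPM in the top 1 to 2.5% and 448 CPM in the top 1%, which holds 19 cells.

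**Figure D3:**
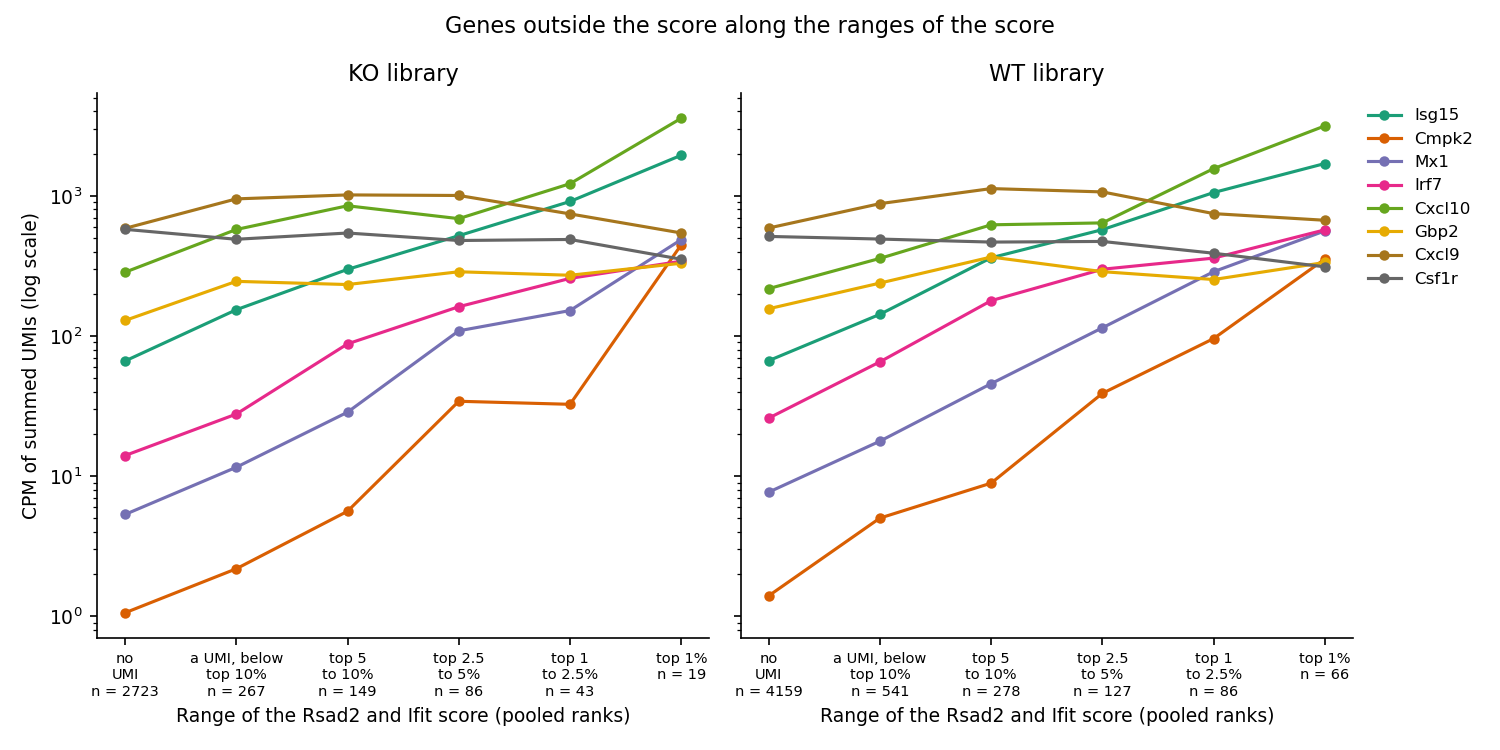
CPM (log axis) of 8 genes outside the score in 6 ranges of the score, from no UMI to the top 1% of all myeloid cells, in KO (left) and WT (right). Points are UMI sums over the cells given under each range; Isg15, Mx1 and Irf7 climbed across all ranges, whereas Gbp2 stayed between 233 and 330 CPM from the top 5 to 10% upwards in KO and Csf1r was lowest in the top 1%.

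Gbp2 and Cxcl9, from the list that leans towards interferon gamma, took another course. The other genes of that list were not followed along the score. Gbp2 had 129 CPM in KO and 156 CPM in WT without a UMI of the 4 genes, 233 and 366 CPM in the top 5 to 10%, and 330 and 335 CPM in the top 1%. Cxcl9 was highest in the ranges around the cut, at 1015 CPM in KO and 1126 CPM in WT in the top 5 to 10%, and had 543 CPM in KO and 669 CPM in WT in the top 1%. Csf1r, the receptor for the growth factor of macrophages, had 577 CPM in KO and 513 CPM in WT without a UMI and 353 CPM in KO and 311 CPM in WT in the top 1%.

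Members with UMIs of 1 rule gene alone carried a weaker programme. The antiviral effectors summed to 3037, 4071, 6760 and 9676 CPM in KO members with 1, 2, 3 and 4 rule genes, and to 4883, 7103, 7950 and 10344 CPM in WT members with 1, 2, 3 and 4. Depth differed too, with a median of 5548 UMIs in KO members with 1 rule gene and 12085 UMIs in those with 4, and of 6516 and 9383 UMIs in WT, and its part was not tested. Rsad2 was the single gene in 33 of the 41 such members of KO and in 33 of the 43 of WT, with a median of 5 UMIs in KO and 6 UMIs in WT. In these Rsad2-only cells Mx1 had only 4 UMIs in KO and 5 UMIs in WT, against 174 UMIs in the 47 KO members and 474 UMIs in the 126 WT members with all 4 genes. Isg15 had 361 CPM in KO and 272 CPM in WT, against 1229 CPM in KO and 1242 CPM in WT with all 4 genes. Ccl4 went the other way in KO, with 3736 CPM in Rsad2-only cells and 2082 CPM with all 4 genes, and Irf7 stayed at 32.0 CPM in KO and 108 CPM in WT in Rsad2-only cells. These small groups were singled out after their values were seen.

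A second score made of genes outside the rule picked a partly different set. Ranked by Isg15, Oasl1, Usp18 and Mx1, the top 5% of myeloid cells shared 241 of 427 cells with the members, or 56.4% of each list. In KO, 67 of 148 members (45.3%) were in the second set, and in WT 174 of 279 (62.4%). Chosen that way, the members had a median antiviral log2 ratio over other myeloid cells of 1.79 in KO and 1.90 in WT, close to the 1.87 in KO and 1.81 in WT above, although Isg15, Oasl1 and Mx1 then belonged to the choice.

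Members were spread over most macrophage states. The myeloid cells were clustered without 141 interferon-related genes, which gave 20 clusters, and 19 of them held members. In the cluster led by Hspa1a, Hmox1, Lgals3, Arg1 and Spp1, 124 of 758 cells were members (16.4%, 13.8 to 19.2%), or 29.0% of all members. Its shares were 10.8% in KO (20 of 185 cells, 6.73 to 16.2%) and 18.2% in WT (104 of 573 cells, 15.1 to 21.6%). A cluster led by the neutrophil-attracting chemokines Cxcl3 and Cxcl2 held 16 members among 126 cells (12.7%, 7.44 to 19.8%). Which cluster had the highest share depended on the resolution. At resolution 0.5 it was again one led by Hspa1a (19.6%), with 11.1% in KO and 22.3% in WT, whereas at resolution 2 it was one led by Cxcl10, Cd274 and Serpina3g (19.4%), with 25.4% in KO and 17.0% in WT. Back at resolution 1, a cluster whose leading genes include the monocyte genes Plac8 and Ly6c2 held 63 members among 734 cells (8.58%, 6.66 to 10.8%).

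**Figure D4:**
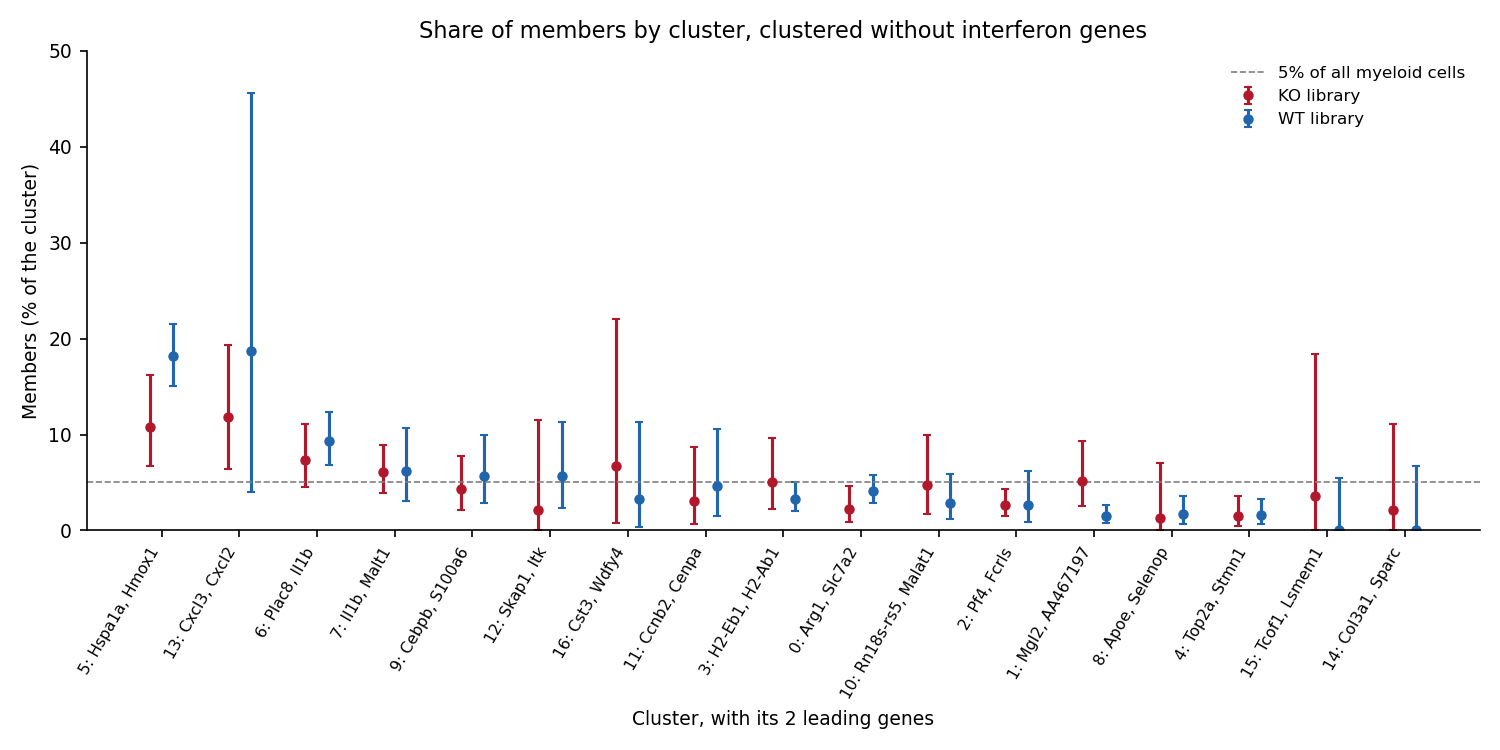
Members as a percentage of each myeloid cluster with at least 50 cells, in KO (red, left) and WT (blue, right), with exact binomial 95% intervals; the dashed line is 5%. Clusters run from the highest to the lowest pooled share, and the cluster led by Hspa1a and Hmox1 stands at 10.8% in KO and 18.2% in WT.

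The low end was held by cells with other programmes. In the cycling cluster led by Top2a and Stmn1, 12 of 759 cells were members (1.58%, 0.820 to 2.74%), and in the cluster led by Apoe and Selenop 7 of 432 (1.62%, 0.654 to 3.31%). The cluster led by Col3a1 and Sparc held 1 member (0.990% of its cells, 0.0251 to 5.39%), and that led by Acp5 and Ctsk held 0 among 48, which allows up to 6.25%. The cluster led by Mgl2 had 10 members of 193 cells in KO (5.18%, 2.51 to 9.32%) and 11 of 739 cells in WT (1.49%, 0.745 to 2.65%), the reverse order of the Hspa1a cluster. Depth differed between these clusters, with a median of 7690.5 UMIs in the Hspa1a cluster and 16587 UMIs in the cycling one, and its part in the shares was not tested.

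Interferon transcripts themselves were rare. Ifnb1, encoding interferon beta, had 37 UMIs in 10 of 148 KO members and 43 UMIs in 10 of 279 WT members. That is 6.76% of KO members (3.29 to 12.1%) and 3.58% of WT members (1.73 to 6.49%), against 2.68% of other KO myeloid cells (84 cells, 146 UMIs) and 0.804% of other WT myeloid cells (40 cells, 43 UMIs). Among all barcodes with at least 1000 UMIs outside the myeloid gate, 25 of 2070 in KO held it (1.21%, 56 UMIs). In WT 9 of 3359 such barcodes did (0.268%, 10 UMIs). In barcodes with at least 2 Cd3 UMIs the share was 0.202% in KO (1 cell) and 0.257% in WT (3 cells). The members held 20.2% of the Ifnb1 UMIs of KO myeloid cells and 50% of those of WT, and 2 cells supplied 22 of the UMIs in the members of each library. Of the interferon alpha genes, Ifna2 had 2 UMIs and Ifna16 had 1 UMI in KO members, and none had a UMI in WT members. Ifng had 1 UMI in KO members and 7 UMIs in WT members, and its UMIs lay almost wholly outside the myeloid gate, with 1530 in KO and 3911 in WT.

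Members with Ifnb1 also carried inflammatory chemokines. In the 10 KO members with Ifnb1, Ccl4 had 9827 CPM, against 1804 CPM in KO members without it, and in the 10 WT members with Ifnb1 it had 5558 CPM, against 829 CPM in WT members without it. Tnf had 1182 CPM with Ifnb1 and 311 CPM without it in KO, and 835 CPM with and 140 CPM without it in WT. Irf7 did not follow, at 108 CPM with Ifnb1 and 214 CPM without it in KO and at 201 CPM with and 381 CPM without it in WT. In other myeloid cells Ccl4 differed less, at 1854 CPM with Ifnb1 and 1067 CPM without it in KO. In WT it had 721 CPM with and 350 CPM without it. The dendritic cell marker Ccr7 had 38 UMIs in KO members with Ifnb1 and 8 UMIs in those without it, and 1 KO member held 36. In WT members it had 2 UMIs with and 100 UMIs without Ifnb1. The part of dendritic cells or single cells in these sums was not tested. The groups of members with Ifnb1 are small and were looked at after their values were seen.

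The share of members among myeloid cells was 4.50% in KO (148 of 3287 cells, 3.82 to 5.27%) and 5.31% in WT (279 of 5257 cells, 4.72 to 5.95%). The ratio of KO to WT was 0.848 (0.690 to 1.04), an interval that holds 1. The ratio and its interval depended on how the cells were chosen and scored. The interval lay below 1 in the top 2% of cells (0.571, 0.397 to 0.809), in the top 10% (0.853, 0.738 to 0.984), with a minimum of 2000 UMIs per cell (0.783, 0.632 to 0.967) and with members chosen by Isg15, Oasl1, Usp18 and Mx1 (0.814, 0.661 to 0.998). With every cell thinned to 1000 UMIs the ratio was 1.04 (0.849 to 1.26), and without Rsad2 in the score it was 0.669 (0.539 to 0.827). Among male-type cells the shares were 4.40% in KO (37 of 841 cells, 3.12 to 6.01%) and 4.85% in WT (212 of 4370 cells, 4.23 to 5.53%). Female-type cells of KO had 4.16% (78 of 1877 cells, 3.30 to 5.16%).

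Within the members, most antiviral effectors were slightly lower in KO than in WT. The antiviral effectors had a median log2 ratio of KO over WT of -0.27 in members and -0.31 in other myeloid cells, and 26 of 29 were negative in members. The PYHIN and Schlafen genes had a median of -0.13 in members and 0.02 in other myeloid cells, and the 2 Ifit relatives with enough UMIs had -0.38 and -0.05. None of the 29 passed a log2 ratio of 1 in either direction, where 44 of 7163 genes (0.614%) were higher and 39 (0.544%) were lower. In other myeloid cells 33 genes (0.34%) were higher and 7 (0.0721%) lower, and 15 genes (0.21% of 7131) were higher and 4 (0.0561%) lower by that size in both sets of cells. Irf7 had 206 CPM in KO members and 374 CPM in WT members, a log2 ratio of -0.84, beside -0.87 in other myeloid cells. Oasl2 had -0.68 in members and -0.83 in other myeloid cells, and Isg15 had -0.29 and -0.07. In the top 2% of myeloid cells by score, 45 in KO and 126 in WT, the antiviral median was 0.052, the opposite sign, and it was -0.51 with every cell thinned to 1000 UMIs and -0.67 among male-type cells alone.

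Some interferon-related genes went the other way. Ifih1 had 456 CPM in KO members (422 to 491) and 232 CPM in WT members (214 to 252), a log2 ratio of 0.96, and 0.52 in other myeloid cells. Its fellow sensor Ddx58 had 95.2 CPM in KO members and 154 CPM in WT members, a log2 ratio of -0.66. Ifi44 and Mx2 had 0.07 and 0.19 in members. The 4 genes of the rule had a median of -0.41, given as a description.

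**Figure D5:**
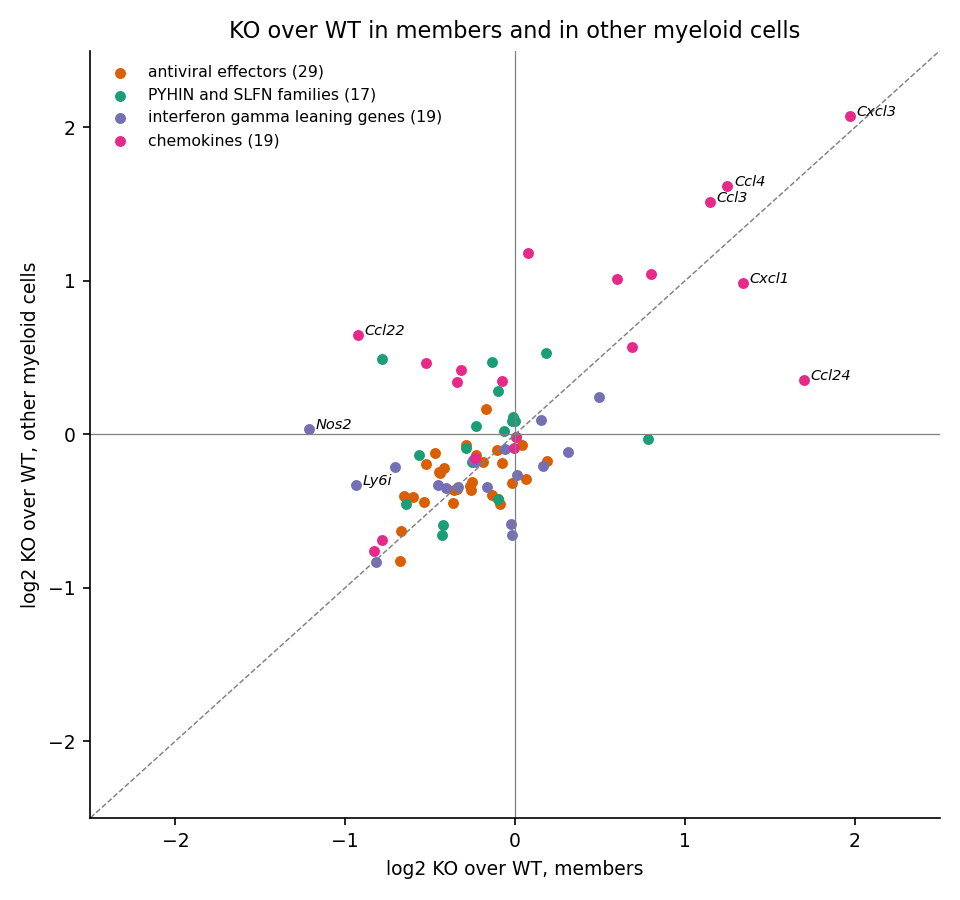
Log2 KO over WT of genes of 4 lists with enough UMIs in members, within members (horizontal axis) and within other myeloid cells (vertical axis); the dashed line marks equal values. Most antiviral effectors lie below and left of 0, while Cxcl3, Ccl24, Cxcl1, Ccl4 and Ccl3 stand at 1.15 or more among members and Nos2 at -1.22.

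Inflammatory chemokines were among the genes that differed most between the libraries. Of 19 chemokines, 5 were higher in KO members by the size used and none was lower, with a median of 0.01 in members and 0.46 in other myeloid cells. Ccl4, already higher in members than in other cells of each library, had 2392 CPM in KO members and 1004 CPM in WT members, a log2 ratio of 1.25, beside 1.62 in other myeloid cells. Ccl3 had 1.15 and Cxcl1 1.34. Cxcl3 had 145 CPM in KO members and 33.3 CPM in WT members, but 53.4% of its UMIs in KO members came from 1 cell, as did 56.7% of those of Ccl24, whose log2 ratio was 1.70 but -0.41 in the top 2% of cells and -0.27 after thinning. Both cytokines past the size used, Tnf (1.16) and Il6 (1.10), were higher in KO members.

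The genes with the largest KO excess in members were neutrophil genes. S100a8 had 97.9 CPM in KO members (13 of 148 cells) and 2.35 CPM in WT members (4 of 279 cells), a log2 ratio of 3.81, and 48.0% of the KO UMIs lay in 1 cell. G0s2 followed at 3.05, from 8 KO cells and 1 WT cell. Among male-type cells alone it had -0.34, but KO members there had no UMI of G0s2, so that value rests on the CPM added. Other myeloid cells had 2.63 and 2.12 for these genes. Clusters of this kind were unequal between the libraries. At resolution 0.5, the cluster led by S100a9, S100a8 and G0s2 held 44 cells of KO, 5 of them members, and 5 cells of WT, 2 of them members. The Cxcl3 and Cxcl2 cluster held 110 cells of KO, 13 of them members, and 16 cells of WT, 3 of them members, and the part of these clusters in the neutrophil and chemokine values was not tested. More evenly spread over cells were Tnfsf9, the ligand of 4-1BB (1.62, in 61 and 41 cells), Mid1 (1.45, in 41 and 31 cells) and the resident macrophage gene Fcrls (1.45, in 57 and 53 cells). Inhba, a subunit of activin, had 82.0 CPM in KO members and 25.8 CPM in WT members, but a log2 ratio of -0.37 in the top 2% of cells and -0.15 after thinning. Hdc, which makes histamine, had 1.40.

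Genes lower in KO members were led by Hspb1, a small heat shock protein, at 25.1 CPM in KO members and 117 CPM in WT members. Of its UMIs in KO members 94.7% came from 1 cell, and it was found in 3 KO and 23 WT cells. Ly6c2 had 70.1 CPM in KO members (21 cells) and 200 CPM in WT members (64 cells), a log2 ratio of -1.45, and Plac8 had -1.10, beside -0.73 and 0.19 in other myeloid cells; in the top 2% of cells Ly6c2 had 0.29. Ifitm6 was found in 2 KO cells and 32 WT cells, with a log2 ratio of -1.88. All 15 hypoxia and glycolysis genes with enough UMIs had negative ratios, with a median of -0.48 in members and -0.23 in other myeloid cells, and Egln3, an oxygen sensor induced by hypoxia, had -1.30 in members. The remaining named genes were Tagap1 (-1.81), Flt1 (-1.44), Stat4 (-1.43), Tbc1d8 (-1.40), Cdadc1 (-1.34) and Dcstamp (-1.33). After thinning Stat4 had 0.035 (-1.74 to 1.69) and Cdadc1 0.028 (-3.55 to 3.15). Stat4 had 0.51 (0.036 to 0.98) among members chosen by Isg15, Oasl1, Usp18 and Mx1. A larger share of WT members than of KO members came from the Hspa1a cluster (104 of 279 and 20 of 148), and the part of cluster make-up in these ratios was not tested.

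The RUNX genes were slightly lower in members than in other myeloid cells. Runx1, the most abundant of them, had 673 CPM in KO members and 710 CPM in other KO myeloid cells, and 482 CPM in WT members and 630 CPM in other WT myeloid cells. Runx3 had log2 ratios of -0.13 in KO and -0.17 in WT, and Runx2 and Cbfb, the shared partner subunit, were also negative in both. The log2 ratio of KO over WT for Runx3 was -0.32 in members and -0.37 in other myeloid cells, and that for Runx1 was 0.48 in members.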

How the data were processed

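UMI counts per gene and barcode were deposited as 1 sparse matrix per library and were made with Cell Ranger 8.0.1, per the file headers, with genome build mm10 and Seurat 3, per the submitters' processing notes. A microwell chip is described in the labels' protocols, whereas the barcodes have a length used by droplet kits, so the chemistry is not settled. Of 55357 features, 52081 identifiers match GENCODE M21, the source of gene coordinates. The members and lists were chosen with earlier results of these data known.

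Counts were summed over the cells of a set and given per 1000000 UMIs (CPM). Log2 ratios use a pseudocount of 5 CPM and understate changes of low genes. Genes counted needed at least 20 UMIs in the members of both libraries together and a UMI in at least 5% of cells of 1 set. For KO over WT the minimum was 50 UMIs over the cells compared. The rule for named genes took the 20 highest and 10 lowest ratios of members over other myeloid cells by the value nearer to 0 of the 2 libraries, and the 10 highest and 10 lowest of KO over WT. Xist, Y-linked, unnamed, ribosomal, mitochondrial and globin genes and the segments of antigen receptors were left out of it. A few genes that it takes are not reported here. It also took the 2 most abundant and the 2 most changed genes of each list; other list genes were named after their values were seen. In all, 23 alternatives were tried. Intervals are exact Poisson or Clopper-Pearson. Clusters used scanpy 1.11.5 (2000 variable genes, 30 components, 15 neighbours, Leiden resolution 1). Doublets were not removed; the 5% of barcodes with the highest scrublet scores, or those with Xist and Y-linked UMIs, were left out in alternatives. Sums with planted changes were used to test the comparison on simulated data.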

Additional observations from a re-analysis of the deposited data

Results flagged for a closer look

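The difference between members and other myeloid cells had opposite signs in the 2 libraries for 3 gene lists and 10 listed genes, by at least 0.1 on the log2 scale on each side. With 1 library per group these differences between the libraries were not tested.

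Class II presentation stood above the other myeloid cells in KO, with a median log2 ratio of 0.17, and below them in WT, at -0.30. Cd74, the invariant chain, had 0.21 in KO and -0.26 in WT, H2-Aa 0.22 and -0.18, H2-Ab1 0.24 and -0.33, H2-DMb1 0.14 and -0.50, and H2-Eb1 0.24 and -0.30. The list summed to 33947 CPM in KO members and 33192 CPM in WT members, against 29497 CPM in other KO myeloid cells and 39509 CPM in other WT myeloid cells. The members of the libraries were thus close to each other, and the other myeloid cells were further apart.

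Checkpoint and costimulatory genes had medians of 0.17 in KO and -0.15 in WT, and Cd86, a ligand of CD28, had 0.17 and -0.14. Monocyte markers had medians of -0.10 in KO and 0.17 in WT, and F13a1, a coagulation factor subunit also listed among resident-type markers, had -0.54 and 0.26. Arg1, encoding arginase 1, had -0.17 in KO and 0.22 in WT, the chemokine Ccl8 -0.48 and 0.20, and the stress-induced gene Ier3 -0.26 and 0.38.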

How the results depend on the processing

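No paired analysis was possible because each group has 1 library. Over 23 alternatives, 147 summary values stayed within set limits, 30 moved and 2 changed sign. Of the values of single named genes, 1437 stayed within them, 304 moved and 11 changed sign. The limits were the 95% interval of the reported value or, for counts of genes, a fixed fold of it. They are wide. Beside the reported 143 genes higher in members, 97 in the top 10% and 192 with a pseudocount of 1 CPM lay within them. So did an antiviral median in KO of 1.40 in the top 10%, beside 1.87. The share ratio of KO to WT was 0.571 in the top 2% of cells, 1.04 with cells thinned to 1000 UMIs and 0.669 without Rsad2. The antiviral median of KO over WT was 0.052 in the top 2%, -0.51 thinned and -0.67 in male-type cells, where the median of members over others in KO was 1.31.

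Genes higher in members of both libraries numbered 223 in the top 2%, 90 thinned and 92 with a pseudocount of 20 CPM. Genes lower in both numbered 18 in the top 2%, 2 in the top 10%, 0 thinned, 23 without Ifit2, 7 without Ifit3, 7 by Isg15, Oasl1, Usp18 and Mx1, 26 with a pseudocount of 1 CPM, 3 with one of 20 CPM, 3 scaled by the median gene ratio and 0 at a minimum of 200 UMIs per gene. Genes higher in KO members numbered 22 thinned, 72 in male-type cells, 17 with a pseudocount of 20 CPM and 17 at 200 UMIs. Genes lower numbered 60 in the top 2%, 18 in the top 10%, 205 in male-type cells, 86 and 13 with pseudocounts of 1 and 20 CPM, and 19 at 200 UMIs. The highest cluster share was 19.6% at resolution 0.5, in a cluster led by Hspa1a, and 19.4% at resolution 2, in one led by Cxcl10, where KO had the higher share.

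Signs turned for Ccl24 (-0.41 in the top 2%, -0.27 thinned), Inhba (-0.37, -0.15), Ly6c2 (0.29 in the top 2%), Ctsk in KO (0.59 in the stricter gate), H1f5 in WT (0.50 thinned), Stat4 (0.035 thinned, 0.51 by the 4 other genes), Cdadc1 (0.028 thinned) and G0s2 (-0.34 in male-type cells). The counting intervals of these values hold 0, except that of Stat4 by the 4 other genes (0.036 to 0.98). That of G0s2 has no finite bounds. The cause of these changes was not tested. Higher minimums leave fewer genes to count, and stricter sets hold fewer cells. Members with UMIs of at least 2 of the 4 genes, an alternative chosen after seeing the data, had antiviral medians over other myeloid cells of 2.04 in KO and 1.96 in WT. Male-type cells rest on 38 KO members. With 148 and 279 members, genes under about 20 UMIs could not be compared.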
